A study of Mus musculus with 2 samples.

Results

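Pre-adipocyte and Adipocyte progenitor are neighbouring cell classes that the authors of a single-cell RNA survey of mouse bone marrow stroma named on the path toward fat cells. The rule took every cell that passed the authors' filter and carried either class label, which gave 211 Pre-adipocyte cells (66 in the sample Stroma1 and 145 in Stroma2) and 463 Adipocyte progenitor cells (165 and 298). These are 674 of the 2847 cells that passed. The study used inDrops, in which each cell is lysed in its own droplet, on 1 group of 2 samples given no treatment. Stroma1 was run as 2 libraries (1.1 and 1.2), and Stroma2 as 3 (2.1, 2.2 and 2.3). Both samples were of strain C56BL/6 (as the label spells it), aged 8 to 16 weeks, with no transgene or other genetic change named. Marrow was taken from crushed femurs, tibiae and pelvic bones and digested with collagenase and dispase. Sorting removed cells that carried CD45, Ter119 or CD31, surface proteins of blood, red cell and endothelial lineages. The labels do not say how many animals went into a sample or whether the samples came from separate animals. With each sample as a block, p-values of the class difference rest on how unequal it was in these samples. They also rest on a spread shared over genes. Either spread may be technical. The authors' class labels may rest on the same counts, so a gene's difference between the classes was not measured independently of how the cells were labelled.

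Marrow fat cells arise from leptin receptor positive stromal cells, which also supply blood stem cells with the chemokine Cxcl12 and the growth factor Kitl (stem cell factor). In cultured fat cell precursors, the transcription factors Cebpb and Cebpd act early and are followed by Pparg and Cebpa, which switch on genes of lipid storage. Immediate-early genes, such as those of the AP-1 and Nr4a families, are transcribed within minutes of a stimulus to a cell without new protein synthesis, and many encode transcription factors or proteins that end the response.

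Both classes carried the markers of the leptin receptor positive lineage and had few or no counts of the markers of a mature fat cell. All 10 lineage markers, Lepr, Cxcl12, Adipoq, Kitl, Pparg, Cebpa, Ebf3, Lpl, Foxc1 and Esm1, had counts in both classes of both samples. Of 8 mature fat cell markers, Cidec, Lep, Retn, Cfd, Pck1 and Plin4 had no count in either class. Plin1, the coat protein of large lipid droplets, had 0 and 0 counts in Pre-adipocyte cells and 0 and 4 in Adipocyte progenitor cells of Stroma1 and Stroma2, too few to test. Fabp4, the fatty acid carrier of fat cells, had 7 and 6 counts in Pre-adipocyte cells, against 14 and 66 in Adipocyte progenitor cells. A single barcode held 47.0% of its Adipocyte progenitor counts of Stroma2.

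The authors' pseudotime on the adipocyte path, a rank of the cells from 0 to 1, had medians of 0.949 and 0.943 in Pre-adipocyte cells of Stroma1 and Stroma2, against 0.765 and 0.766 in Adipocyte progenitor cells. The classes overlapped between 0.862 and 0.911, a stretch that held 42 of 210 Pre-adipocyte and 52 of 461 Adipocyte progenitor cells placed on this path. Summed counts were 124616 and 215170 in Pre-adipocyte cells, with medians of 1750 and 1217 per cell, against 319639 and 475368 in Adipocyte progenitor cells, with medians of 1882 and 1449.5. Mitochondrial genes took 2.73% and 3.11% of the Pre-adipocyte counts, against 4.06% and 4.05% of the Adipocyte progenitor counts. The part of this gap and of the lower depth of Pre-adipocyte cells in the results below was not tested, apart from a fit to cells thinned to 1 depth. Cell barcodes recurred between libraries of the same sample, 293 times among all passing cells, and 259 of these pairs had the same class label. They recurred 18 times between libraries of different samples, where 4 pairs had the same label. A shared barcode was found on 8 of 66 and 24 of 145 Pre-adipocyte cells, against 9 of 165 and 62 of 298 Adipocyte progenitor cells. Markers on the list of another cell type exceeded 2% of the counts in 2 of 66 and 6 of 145 Pre-adipocyte cells, against 5 of 165 and 9 of 298 Adipocyte progenitor cells. Most of these passed on the osteoblast list, 1 of the 2 and 4 of the 6 Pre-adipocyte cells and all 5 and all 9 Adipocyte progenitor cells. That list summed to 6604 to 8804 CPM in both classes and MSC of both samples, mostly from the bone matrix genes Ibsp and Spp1. Results that rest on either kind of barcode are given with and without them for some genes and lists below, not for all.

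Pre-adipocyte cells differed from Adipocyte progenitor cells mainly by genes with higher levels. Of 4470 genes with enough counts to test, 258 were higher in Pre-adipocyte cells (5.77%) and 37 were lower (0.828%) at an edgeR adjusted p under 0.05, 295 in all (6.6%). Scaling used the TMM method, which assumes that most genes do not differ. When sums were scaled by raw totals alone, 225 genes were higher and 100 lower, so the higher share of the calls was 69.23% in place of 87.46%, and the median log2 difference of all genes was -0.16 in place of -0.02. All 295 called genes had the same direction in both samples, and 291 had levels that did not overlap between the classes. A call makes both likely, and neither was counted over all genes tested. Levels of Lepr, Lpl, Cebpa, Cebpd and Pparg, none of them called, did not overlap either. A difference beyond 1 on the log2 scale was reached by 185 of the higher and 16 of the lower genes. The samples were not shown to differ in the class contrast: an edgeR test of class by sample, on sums per library, called 0 of 4470 genes (0%), with 195 at an unadjusted p under 0.05. Without library 2.3 the calls fell to 157 higher and 8 lower, and without library 1.1 there were 23 lower.

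**Figure D1:**
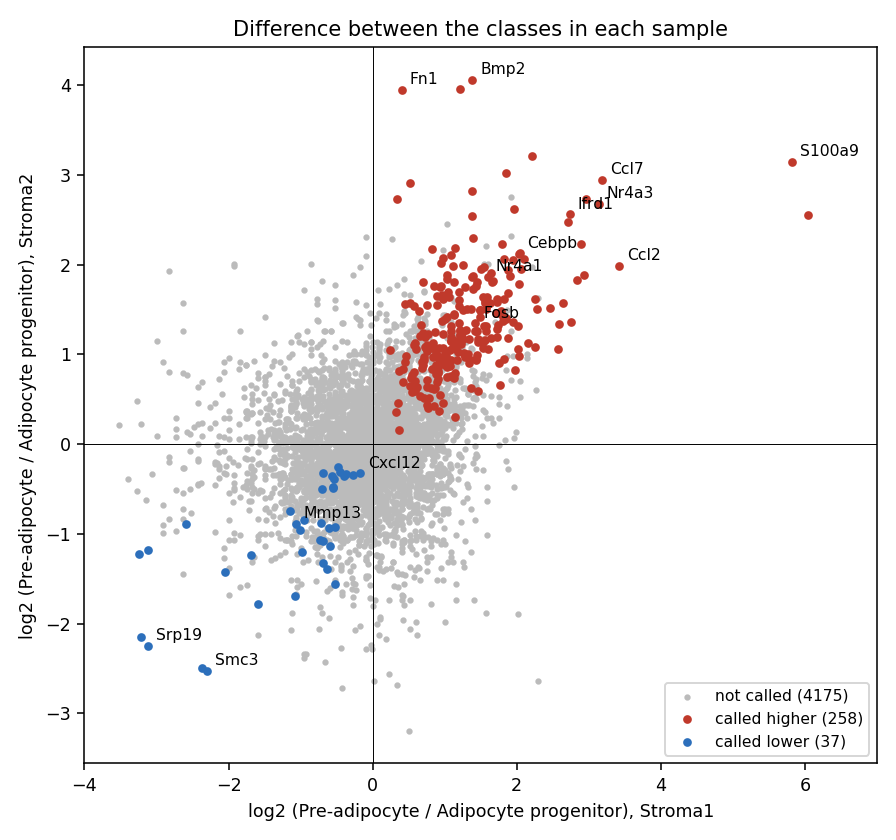
Log2 ratio of Pre-adipocyte to Adipocyte progenitor levels in Stroma1 (x axis) and Stroma2 (y axis) for each of 4470 tested genes, with red points for the 258 called higher, blue points for the 37 called lower and grey points for the rest. The called points lie at the upper right and lower left, and Fn1 and Bmp2 lie at the top, with a higher ratio in Stroma2 than in Stroma1.

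Levels are given as CPM, a gene's counts scaled to a common total for each class and sample, with Stroma1 before Stroma2. Log2 differences are Pre-adipocyte over Adipocyte progenitor from edgeR, on the TMM scale, with their standard error (SE). Coordinates are of GRCm38 with the GENCODE M21 annotation. The difference with the lowest adjusted p among the named genes was in Ifrd1 (chr12:40201567-40248504, minus strand), a transcriptional co-regulator induced by growth factors and by stress. Ifrd1 had 5449 and 4792 CPM in Pre-adipocyte cells, against 882 and 877 CPM in Adipocyte progenitor cells. Every Pre-adipocyte value was over 5 times the Adipocyte progenitor value of its sample, and the edgeR difference was 2.65 ± 0.10 (SE, 6.30-fold, adjusted p = 3.15e-12). MSC, the authors' class that comes earliest on the path (pseudotime medians of 0.323 and 0.310), had 145 and 144 CPM, below both.

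AP-1 transcription factors, dimers of Fos, Jun, Maf and Atf proteins, were higher almost as a family. Of 11 AP-1 subunits tested, 10 were higher, 1 was lower, and the median log2 difference was 1.29, beside -0.02 over all genes tested. The higher count was 9 without cells with a shared barcode, 7 without library 2.3 and 7 with DESeq2, an alternative test. Fosb (chr7:19302696-19310051, minus strand) had 6010.5 and 5772 CPM in Pre-adipocyte cells, against 2428 and 2463 CPM in Adipocyte progenitor cells. Its levels did not overlap and differed by 1.39 ± 0.09 (SE, 2.62-fold, adjusted p = 4.31e-09). Junb had 5208 and 5539.8 CPM in Pre-adipocyte cells, against 2296 and 2491 CPM in Adipocyte progenitor cells (1.29 ± 0.09, SE, adjusted p = 1.34e-08). Fosl2, a longer-lived Fos protein, had 457 and 632 CPM in Pre-adipocyte cells and 225 and 168 CPM in Adipocyte progenitor cells (1.64 ± 0.23, SE, adjusted p = 6.37e-05). The small Maf proteins, which lack an activation domain of their own, were also among the higher genes. Maff differed by 1.56 and Mafk by 1.79 on the log2 scale. Jun, Jund and Atf3 differed by 0.72, 0.92 and 1.0. Maf itself was the lower member, with 185 and 232 CPM in Pre-adipocyte cells, against 394 and 461 CPM in Adipocyte progenitor cells (-0.91 ± 0.22, SE, adjusted p = 0.0147). The Maf call was lost without library 1.1 (-0.78, adjusted p = 0.07) and without library 2.3 (-0.89, adjusted p = 0.059). Mafk lost its call without library 1.1 (1.64), 2.1 (1.58) and 2.3 (1.93), with adjusted p of 0.178, 0.0808 and 0.0516.

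Fos, widely used as a sign of recent stimulation, stood apart from its family. Its levels were 15768 and 13157 CPM in Pre-adipocyte cells, against 13321 and 12866 CPM in Adipocyte progenitor cells, and the Stroma2 Pre-adipocyte value lay below the Stroma1 Adipocyte progenitor value. The difference of 0.26 ± 0.07 (SE) passed the edgeR test (adjusted p = 0.0359). It was lost with raw totals (0.12, adjusted p = 0.429) and without library 1.1 (0.41), 2.1 (0.23) or 2.3 (0.27). The adjusted p were 0.0918, 0.356 and 0.183. Without library 1.2 its sign turned (-0.015). MSC had 2483 and 2670.3 CPM of Fos, so both classes lay far above the start of the path.

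Nr4a receptors, orphan nuclear receptors induced by cyclic AMP, calcium and growth factors, and the zinc finger factors of the Egr family had the highest median of the lists with at least 5 tested members. All 5 tested members were higher, with a median of 1.75. The count was 4 without the cells over 2% described above, 4 without cells with a shared barcode and 4 with DESeq2. Nr4a1 (chr15:101254269-101274795, plus strand) had 3410.5 and 3551 CPM in Pre-adipocyte cells, against 1217 and 1054 CPM in Adipocyte progenitor cells and 72.7 and 109 CPM in MSC. It differed by 1.75 ± 0.11 (SE, 3.36-fold, adjusted p = 3.58e-09), with no overlap. Nr4a3 had 457 and 418 CPM in Pre-adipocyte cells, against 50.1 and 65.2 CPM in Adipocyte progenitor cells (3.0 ± 0.28, SE, 8.02-fold, adjusted p = 5.33e-07). For Nr4a2 the Pre-adipocyte values of 144 and 572 CPM were both above the 56.3 and 82.0 CPM of Adipocyte progenitor cells, by 1.37 in Stroma1 and 2.82 in Stroma2 on the log2 scale (2.46 ± 0.33 in the fit, SE, adjusted p = 3.37e-05). Egr1 differed by 0.83 and Egr2 by 1.13. Egr2 lost its call without library 1.2 (0.74, adjusted p = 0.271) and without library 2.3 (0.93, adjusted p = 0.162).

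Other early transcription factors followed for 11 of 22 tested members, with none lower and a median of 0.83. Ier5, which binds heat shock factor 1 and a protein phosphatase, had 2897 and 2533 CPM in Pre-adipocyte cells, against 769.6 and 795 CPM in Adipocyte progenitor cells (1.91 ± 0.12, SE, adjusted p = 3.58e-09). Myc, a driver of growth and ribosome production, had 1444 and 1046 CPM in Pre-adipocyte cells, against 319 and 395 CPM in Adipocyte progenitor cells (1.88 ± 0.18, SE, adjusted p = 5.89e-07). Both genes had every Pre-adipocyte value above every Adipocyte progenitor value. Among the Kruppel-like factors, Klf4 differed by 1.10, Klf6 by 1.43, Klf10 by 1.74 and Klf2 by 0.92. Klf2, which in mouse fat cell precursors represses Pparg, lost its call without library 1.2 (0.57, adjusted p = 0.115).

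Genes for proteins that end such responses were also among the higher ones. Of 30 tested early-response feedback regulators, 16 were higher and none was lower (median 1.0). Errfi1, an inhibitor of the EGF receptor kinase, had 2712 and 2784 CPM in Pre-adipocyte cells, against 935 and 862 CPM in Adipocyte progenitor cells (1.74 ± 0.12, SE, 3.34-fold, adjusted p = 5.39e-09). Zfp36, which binds AU-rich messages and speeds their decay, had 7294 and 7324 CPM in Pre-adipocyte cells and 3426 and 3644 CPM in Adipocyte progenitor cells (1.17 ± 0.08, SE, adjusted p = 1.64e-08). The ranges did not overlap for either gene. Sik1, a kinase induced by cyclic AMP that restrains CREB signalling, and Spry4, an inhibitor of Ras signalling, had low counts of 16 and 33 and of 12 and 37 in Pre-adipocyte cells, against 9 and 18 and 10 and 20 in Adipocyte progenitor cells. They differed by 2.19 ± 0.40 and 1.99 ± 0.40 (SE) on the log2 scale, with adjusted p of 0.00137 and 0.00322.

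Promoters of the genes called higher are shown because many of them moved together and belong to families whose induction elements are known. Windows of 250 bases before to 50 bases after a RefSeq start (GRCm38.p6) were found for 209 of the 258 higher genes, 274 windows in all, and for 3621 of the 4470 tested genes, 4713 windows. Both strands were searched for the cyclic AMP response element (CRE, TGACGTCA), the AP-1 site (TGANTCA), the TATA box (TATAAA), the C/EBP site (TTGCNNAA), the CArG box of serum response factor and the kappaB site of NF-kappaB. Matches of the named motifs may overlap each other within a window. A CRE was held by 5.11% of the windows of higher genes, against 2.76% of the windows of all tested genes and 1.79% of all 32851 RefSeq windows. A CArG box was held by 3.28% of the windows of higher genes, 1.57% of those of tested genes and 1.63% of all. The TATA box shares, in the same order, were 16.4%, 7.62% and 13.6%. For the kappaB site they were 12.8%, 11.1% and 8.46%, for the AP-1 site 8.03%, 4.97% and 7.81%, and for the C/EBP site 9.49%, 8.30% and 10.8%. So the shares of TATA boxes and AP-1 sites in higher genes lay well above those of tested genes and closer to those of all windows. In the 44 windows of higher genes on the 4 early-response lists, the shares were 9.09% for the CRE, 11.4% for the CArG box, 25% for the TATA box, 20.5% for the kappaB site, 6.82% for the AP-1 site and 4.55% for the C/EBP site. A match of letters is a description and not a site of binding. Below are the last 150 bases before the start of 4 higher genes, 5′ to 3′ on the gene's own strand, from RefSeq GRCm38.p6, with matches in capitals. They were chosen because they hold a match, and the windows of the higher genes Ifrd1, Nr4a3 and Ier5 and of the other Errfi1 start held none of the motifs.
Errfi1: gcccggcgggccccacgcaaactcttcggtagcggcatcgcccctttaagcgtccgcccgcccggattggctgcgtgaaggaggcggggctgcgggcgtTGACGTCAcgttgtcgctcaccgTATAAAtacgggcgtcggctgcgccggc
Zfp36: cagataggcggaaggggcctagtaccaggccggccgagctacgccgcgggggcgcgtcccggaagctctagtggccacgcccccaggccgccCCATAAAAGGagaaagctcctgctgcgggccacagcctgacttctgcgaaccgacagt
Cxcl1: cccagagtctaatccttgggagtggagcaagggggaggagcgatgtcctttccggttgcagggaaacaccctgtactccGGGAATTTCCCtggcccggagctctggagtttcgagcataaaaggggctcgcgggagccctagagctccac
Il6: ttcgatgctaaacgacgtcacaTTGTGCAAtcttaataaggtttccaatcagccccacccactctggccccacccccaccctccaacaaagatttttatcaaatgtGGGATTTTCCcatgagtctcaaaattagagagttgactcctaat
The Errfi1 stretch (chr4:150854920-150855069, plus strand) belongs to 1 of its 2 listed starts, and its capitals mark a CRE and then a TATA box. The Zfp36 capitals (chr7:28379229-28379378, minus strand) mark a CArG box. The Cxcl1 capitals (chr5:90891095-90891244, plus strand) mark 2 overlapping kappaB matches, and the Il6 capitals (chr5:30012964-30013113, plus strand) mark a C/EBP site and then a kappaB site.

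Chemokines that call in myeloid cells were among the largest differences. Of 7 inflammatory chemokines tested, 4 were higher and none was lower, with a median of 1.59. Values were above 0 for 5 of the 7, and the lowest was -0.71. With raw totals, without library 2.2 or with cells thinned to 500 counts, 1 member was called lower. Ccl2 and Ccl7 lie side by side on chromosome 11 and draw monocytes through the receptor Ccr2. Ccl7 (chr11:82045712-82047525, plus strand) had 867 and 446 CPM in Pre-adipocyte cells, against 97.0 and 56.8 CPM in Adipocyte progenitor cells (3.18 ± 0.24, SE, 9.09-fold, adjusted p = 2.61e-08). Ccl2 (chr11:82035571-82037453, plus strand) had 2519.7 and 1464 CPM in Pre-adipocyte cells, against 250.3 and 395 CPM in Adipocyte progenitor cells (2.65 ± 0.22, SE, 6.28-fold, adjusted p = 9.52e-08). Neither gene overlapped between the classes. The Ccl2 difference was 3.42 in Stroma1 and 1.99 in Stroma2, and this inequality did not pass the test of class by sample (adjusted p = 0.159, the lowest of all genes tested). Cxcl1, which draws neutrophils and whose promoter is printed above, had 2801 and 1998 CPM in Pre-adipocyte cells, against 751 and 865 CPM in Adipocyte progenitor cells (1.66 ± 0.14, SE, 3.15-fold, adjusted p = 1.99e-07). Cxcl10, an interferon-inducible chemokine for T cells, differed by 1.59 ± 0.17 (SE). In MSC these genes had 4.11 and 10.7 CPM (Ccl7), 54.9 and 39.0 CPM (Ccl2) and 53.5 and 48.7 CPM (Cxcl1).

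Cytokines were represented by fewer genes. Il6 (chr5:30013114-30019981, plus strand), the founding member of its cytokine family, had 618 and 404 CPM in Pre-adipocyte cells, against 253 and 69.4 CPM in Adipocyte progenitor cells. The lowest Pre-adipocyte value was above the highest Adipocyte progenitor value, though each class varied widely, and the difference was 1.96 ± 0.27 (SE, 3.88-fold, adjusted p = 4.36e-05). Tnfsf11 (RANKL, chr14:78277445-78308043, minus strand), the signal that makes osteoclasts mature, had 618 and 469 CPM in Pre-adipocyte cells, against 178 and 154 CPM in Adipocyte progenitor cells and 115 and 128 CPM in MSC. Its difference was 1.81 ± 0.21 (SE, 3.52-fold, adjusted p = 8.8e-06). These were 2 of 7 tested members of the cytokine list. Of 15 NF-kappaB subunits and targets, 6 were higher: Ptgs2 (taken up below), Rel, Tnfaip6, Icam1, Nfkb1 and Vcam1. Icam1, an adhesion protein, differed by 1.46 and Nfkb1 by 1.43. The count of 6 on this list became 3 without library 1.1, 3 without library 1.2 and 1 with DESeq2. Rel (1.80) lost its call without library 1.2 (1.57) or 2.3 (1.78), and Tnfaip6 (1.64) without library 1.1 (1.62), 1.2 (1.39) or 2.1 (1.55).

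Factors by which marrow stroma holds blood stem cells mostly did not pass the test, as was true of all genes tested (6.6% called). Their called share was not below that share. Of 18 niche factors, 2 were higher (Tnfsf11 and Vcam1), 1 was lower (Cxcl12) and 15 were not called, with a median of 0.08 that turned negative with raw totals. Cxcl12 (chr6:117168535-117181367, plus strand) had 47899 and 43714 CPM in Pre-adipocyte cells, against 58707 and 59579 CPM in Adipocyte progenitor cells and 63488 and 65664 CPM in MSC. Its levels did not overlap, and it fell by 0.25 ± 0.05 on the log2 scale (SE, 1.19-fold lower, adjusted p = 0.00624). The Cxcl12 call was lost without library 1.1 (-0.39), 1.2 (-0.19), 2.1 (-0.26) and 2.3 (-0.23), with adjusted p between 0.0996 and 0.337. Kitl had 1364 and 1153 CPM in Pre-adipocyte cells and 1314 and 1224 CPM in Adipocyte progenitor cells, which overlapped (0.10 ± 0.13, SE, adjusted p = 0.787). Lepr, the leptin receptor, had 1557 and 1571 CPM in Pre-adipocyte cells and 1846 and 1670.3 CPM in Adipocyte progenitor cells (-0.04 ± 0.12, SE, adjusted p = 0.92). Vcam1, an adhesion protein for blood cells, differed by 0.34 (adjusted p = 0.0391). Its call was lost without any one of the 5 libraries, with values of 0.26 to 0.39.

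The genes of fat cell differentiation gave a mixed picture, with Cebpb high and its later partners not called. Of 17 adipogenic transcription factors tested, 2 were higher (Cebpb and Klf4) and none was lower, with a median of 0.10 that turned negative with raw totals. Cebpb (chr2:167688915-167690418, plus strand) had 3691 and 3429.8 CPM in Pre-adipocyte cells, against 976 and 854 CPM in Adipocyte progenitor cells and 330.5 and 409 CPM in MSC. Its difference was 2.09 ± 0.11 (SE, 4.24-fold, adjusted p = 2.48e-10), with no overlap. Cebpd had 1541 and 1538 CPM in Pre-adipocyte cells and 1186 and 1325 CPM in Adipocyte progenitor cells, and its difference of 0.41 ± 0.12 (SE) lay just outside the threshold (adjusted p = 0.0507). Cebpa had 409 and 428 CPM in Pre-adipocyte cells, 447 and 482 CPM in Adipocyte progenitor cells and 712 and 618 CPM in MSC (-0.03 ± 0.19, SE, adjusted p = 0.963). Pparg rested on 10 and 17 counts in Pre-adipocyte cells and 15 and 31 in Adipocyte progenitor cells, which is 80.2 and 79.0 CPM in Pre-adipocyte cells and 46.9 and 65.2 CPM in Adipocyte progenitor cells. A difference in Pparg was not detectable at this depth (0.59 ± 0.43, SE, adjusted p = 0.556).

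None of the 15 tested genes of lipid storage and synthesis was called in either direction, and they ranged from -1.13 to 1.22 on the log2 scale. On a list this short, 0 calls lies near the 6.6% of all genes tested that were called. Lpl, the lipase that frees fatty acids from blood lipids, had 3089.5 and 3429.8 CPM in Pre-adipocyte cells, 4183 and 3829 CPM in Adipocyte progenitor cells and 5338 and 5258 CPM in MSC (-0.17 ± 0.10, SE, adjusted p = 0.425). Adipoq, the fat cell hormone adiponectin that marrow stroma also makes, had 2255 and 1399 CPM in Pre-adipocyte cells and 1989.7 and 1952 CPM in Adipocyte progenitor cells (-0.04 ± 0.13, SE, adjusted p = 0.939). The Adipoq values of the Pre-adipocyte class lay on both sides of the Adipocyte progenitor values. The highest value was that of Hmgcs1 of the sterol pathway (1.22, adjusted p = 0.108) and the lowest that of Fabp4 (-1.13, adjusted p = 0.314). At an unadjusted p under 0.05 there were 3 such genes by edgeR, beside 726 of the 4470 genes tested. DESeq2 also called 0 on this list, beside 107 higher and 8 lower among the 4470. In other fits 1 gene of the list was called, Hmgcs1 higher without library 2.2 and without the cells over 2% described above, and Apoe lower with raw totals, with no filter on low counts and with sums per library.

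**Figure D2:**
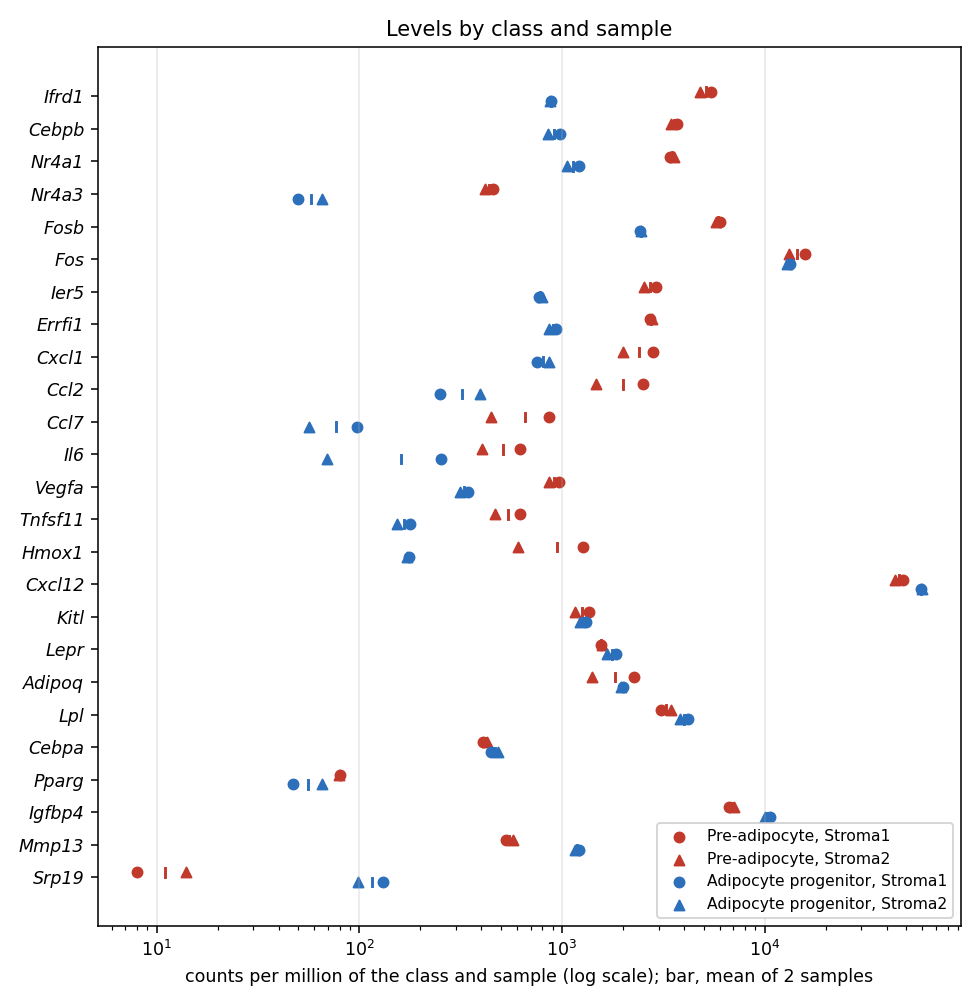
CPM on a log axis for 25 genes (rows) in each class and sample, with red for Pre-adipocyte, blue for Adipocyte progenitor, circles for Stroma1, triangles for Stroma2 and a bar at each mean of 2 samples. The red symbols lie to the right of the blue ones from Ifrd1 to Hmox1 except for Fos, overlap or lie close for Kitl, Lepr, Adipoq, Lpl, Cebpa and Pparg, and lie to the left for Cxcl12, Igfbp4, Mmp13 and Srp19.

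Of 15 tested heat shock chaperones, 7 were higher in Pre-adipocyte cells and none was lower (median 0.76). Dnajb1, a co-chaperone of Hsp70, had 1340.1 and 1162 CPM in Pre-adipocyte cells, against 488 and 559.6 CPM in Adipocyte progenitor cells (1.36 ± 0.15, SE, adjusted p = 4.17e-06). Hspa8, the constitutive Hsp70, had 6668 and 5884 CPM in Pre-adipocyte cells and 3538 and 3803 CPM in Adipocyte progenitor cells (0.89 ± 0.09, SE, adjusted p = 1.7e-06). Of 15 genes of the unfolded protein and amino acid response, 3 were higher, or 1 with DESeq2. The 3 were the endoplasmic reticulum chaperone Hspa5 (0.82), its co-chaperone Dnajb9 (0.82) and the stress factor Atf4 (0.79).

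Haem, metal and redox genes gave 4 higher and 2 lower members of 21. Hmox1 (haem oxygenase 1, chr8:75093621-75100589, plus strand), which breaks down haem, had 1276 and 604 CPM in Pre-adipocyte cells, against 175 and 172 CPM in Adipocyte progenitor cells (2.44 ± 0.22, SE, 5.42-fold, adjusted p = 3.42e-07). The Stroma1 Pre-adipocyte value was about double that of Stroma2, and both exceeded every Adipocyte progenitor value. Mt2, a metal-binding protein induced by glucocorticoids and zinc, had 4020.4 and 3820.2 CPM in Pre-adipocyte cells and 1858 and 1916 CPM in Adipocyte progenitor cells (1.17 ± 0.10, SE, adjusted p = 1.34e-07). Txnrd1, which reduces thioredoxin, differed by 1.83. The lower members were the iron exporter Slc40a1 (24.1 and 32.5 CPM in Pre-adipocyte cells, against 131 and 107 CPM in Adipocyte progenitor cells) and the secreted peroxidase Gpx3 (4012 and 3676 CPM in Pre-adipocyte cells, against 5262 and 5080.3 CPM in Adipocyte progenitor cells). They differed by -1.86 ± 0.46 (adjusted p = 0.0162) and -0.31 ± 0.09 (SE, adjusted p = 0.0409). Slc40a1 lost its call without library 1.2 (-1.59, adjusted p = 0.0502) or 2.3 (-1.65, adjusted p = 0.101). Gpx3 lost it without library 1.1, 1.2, 2.1 or 2.3, at values of -0.42, -0.28, -0.31 and -0.33.

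Genes of oxygen and glucose use and genes that answer glucocorticoids gave smaller groups. Vegfa, the main growth factor of vessels, had 971 and 864 CPM in Pre-adipocyte cells, against 344 and 313 CPM in Adipocyte progenitor cells (1.60 ± 0.16, SE, 3.03-fold, adjusted p = 1.77e-06). It was 1 of 5 higher members among 18 tested genes of glycolysis and hypoxia, with Ndrg1, Adm, Ldha and Hk2. This count was 3 without library 2.3 and 2 with DESeq2. Adm (1.38) lost its call without library 1.2 (1.02), 2.1 (1.35), 2.2 (0.85) or 2.3 (1.68), and Ndrg1 (1.48) without library 1.1 (1.13). Sgk1, a kinase induced by glucocorticoids, had 1388 and 1306 CPM in Pre-adipocyte cells, against 497 and 450.2 CPM in Adipocyte progenitor cells (1.63 ± 0.14, SE, adjusted p = 2.24e-07). With Cdkn1a, Mt2 and Mt1 it made 4 higher of 15 tested glucocorticoid-responsive and clock genes. Cdkn1a (p21), which halts the cell cycle, had 786 and 1125 CPM in Pre-adipocyte cells and 409.8 and 372 CPM in Adipocyte progenitor cells (1.43 ± 0.18, SE, adjusted p = 1.48e-05). Of 9 tested cell cycle genes, the other 2 called were Pcna (1.39) and H2afz (1.19), both higher, and Pcna lost its call without library 1.1 (1.25) or 2.3 (1.20). Of 17 genes of mRNA processing, 6 were higher, among them the splicing factors Tra2b (1.06) and Srsf7 (1.06) and the kinase Clk1 (0.95). That count was 3 without library 1.2, 3 without library 2.3, 5 without cells with a shared barcode and 1 with DESeq2. Srsf7 lost its call without library 1.2 (0.87), 2.1 (0.90), 2.2 (0.93) or 2.3 (1.22), Tra2b without library 2.3 (0.89) and Clk1 without library 1.2 (0.63).

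Matrix genes went in both directions. Of 33 tested collagens and matrix proteins, 4 were higher and 3 lower, and with raw totals 11 were lower. Ctgf, a matricellular target of YAP signalling, had 2062 and 2709.5 CPM in Pre-adipocyte cells, against 1251 and 1344 CPM in Adipocyte progenitor cells (1.0 ± 0.12, SE, adjusted p = 8.09e-06). Thbs1, which activates TGF-beta, had 529.6 and 479 CPM in Pre-adipocyte cells and 166 and 276 CPM in Adipocyte progenitor cells (1.28 ± 0.23, SE, adjusted p = 0.000966). Neither overlapped between the classes. Among proteases and their inhibitors, Adamts1, a protease of proteoglycans, had 1926 and 1836 CPM in Pre-adipocyte cells and 763 and 1001 CPM in Adipocyte progenitor cells (1.21 ± 0.13, SE, adjusted p = 4.17e-06). Timp3, an inhibitor of metalloproteases, differed by 1.08 and lost its call without library 2.3 (0.87). Of 20 members tested, 3 were higher and 2 were lower (Mmp13 and Mmp14). Without library 2.3, 1 member of each list was lower.

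The lower genes were fewer, and 16 of the 37 lay beyond 1 in size on the log2 scale. Igfbp4, which binds insulin-like growth factors, had 6676 and 7069 CPM in Pre-adipocyte cells, against 10565 and 10064 CPM in Adipocyte progenitor cells. It fell by 0.46 ± 0.08 on the log2 scale (SE, 1.38-fold lower, adjusted p = 0.000465), and without library 2.3 the adjusted p was 0.0516 (-0.43). Mmp13 (chr9:7272514-7283331, plus strand), a collagenase of bone and cartilage, had 529.6 and 572 CPM in Pre-adipocyte cells, against 1214 and 1159 CPM in Adipocyte progenitor cells (-0.98 ± 0.15, SE, adjusted p = 0.00019). Its level in MSC was 613 and 584 CPM, close to that of Pre-adipocyte cells. Col8a1, a short-chain collagen, had 409 and 344 CPM in Pre-adipocyte cells, against 726 and 799 CPM in Adipocyte progenitor cells (-0.92 ± 0.18, SE, adjusted p = 0.00232). All 3 genes had every Pre-adipocyte value below every Adipocyte progenitor value. Mmp14, a membrane-bound collagenase, had 1 and 12 counts in Pre-adipocyte cells, against 46 and 72 in Adipocyte progenitor cells (-1.91 ± 0.46, SE, adjusted p = 0.014). The Mmp14 call was lost without library 2.3 (-1.74, adjusted p = 0.157), and without library 2.2 the value was -2.87.

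The lowest ratios rested on very few Pre-adipocyte counts. Srp19, a protein of the signal recognition particle, had 1 and 3 counts in Pre-adipocyte cells, against 42 and 47 in Adipocyte progenitor cells. The ratio of the summed levels was 0.105, with an exact 95% counting interval of 0.0280 to 0.279. Smc3, a ring subunit of cohesin, had 3 and 3 counts in Pre-adipocyte cells, against 50 and 58 in Adipocyte progenitor cells (ratio 0.130, 0.0467 to 0.292). For Sumf1, which activates sulfatases, the ratio was 0.105 (0.0211 to 0.320), and for Pik3r4, a subunit of the Vps34 lipid kinase, 0.0900 (0.0106 to 0.342). These intervals cover counting error only. Pik3r4 lost its call without library 1.1 (adjusted p = 0.061) or 2.3 (adjusted p = 0.0772). Fitted values of such low genes moved with single libraries, Srp19 from -3.08 to -3.82 without library 2.3, Smc3 from -2.78 to -3.47 without library 1.1 and -3.47 without 2.1, and Sumf1 from -3.08 to -4.29 without library 2.2. In MSC, Srp19 had 122 and 85.8 CPM and Smc3 108 and 159.8 CPM, close to their levels of 131 and 98.9 CPM and 156 and 122 CPM in Adipocyte progenitor cells.

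**Figure D3:**
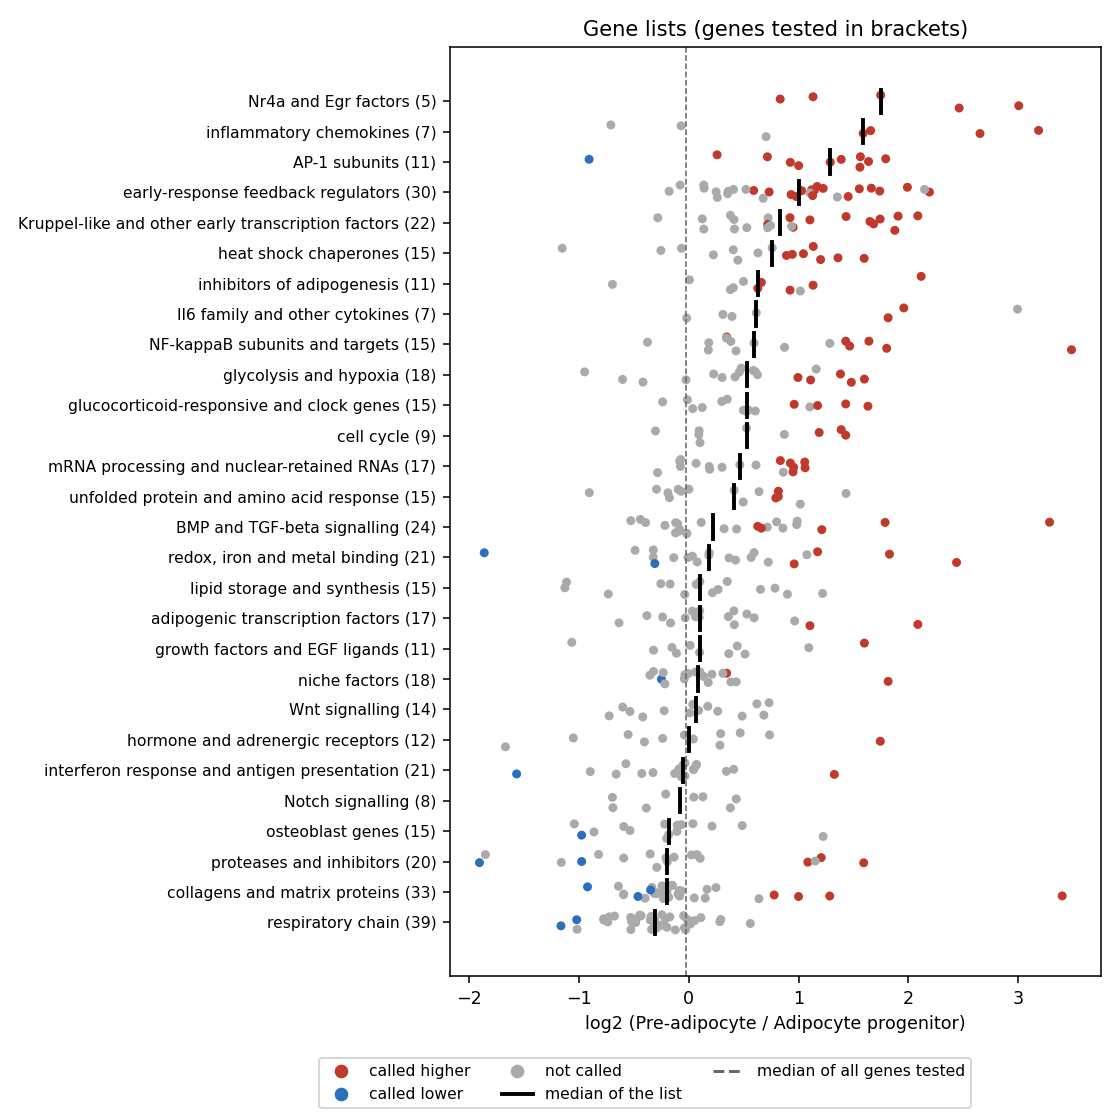
Log2 ratio of Pre-adipocyte to Adipocyte progenitor levels for the tested members of 28 gene lists (rows, number tested in brackets), with red points called higher, blue called lower, grey not called, a black bar at each list's median and a dashed line at the median of all genes tested. Nr4a and Egr factors, inflammatory chemokines, AP-1 subunits and, barely, early-response feedback regulators have medians over 1. Wnt, Notch, lipid and niche lists lie around 0, and the respiratory chain lies below it.

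Calls on the signalling lists were uneven, beside the 5.77% higher and 0.828% lower among all genes tested. Of 24 tested genes of BMP and TGF-beta signalling, 5 were higher and none was lower. The higher count became 3 without library 1.1, 1.2 or 2.1, 4 without cells with a shared barcode and 1 with DESeq2. The 5 were Bmp2, the feedback inhibitors Skil (1.79) and Smad7 (1.21) and the BMP targets Id2 (0.66) and Id3 (0.63). Of 11 tested inhibitors of adipogenesis, 5 were higher: Sox9, Egr2, Klf2, Id2 and Id3. That count was 1 without library 1.2, 3 without library 2.3 and 2 with DESeq2. None of the 14 tested Wnt genes and none of the 8 Notch genes was called by edgeR, at medians of 0.06 and -0.08. On lists this short, 0 calls lies near the 6.6% of all genes tested that were called. At an unadjusted p under 0.05 there were 3 Wnt genes and 1 Notch gene, and DESeq2 called 0 on either list. With raw totals 2 Wnt genes were lower and the Wnt median was negative. Of 15 osteoblast genes, 1 was lower (Mmp13), or 5 with raw totals. Without library 1.1, 2 were lower (Mmp13 and Limch1) and 1 was higher (Twist1), and without library 2.1, 2 were lower (Mmp13 and Col1a1). Runx2, the master factor of bone formation, had 112 and 209 CPM in Pre-adipocyte cells and 194 and 217 CPM in Adipocyte progenitor cells (-0.20 ± 0.29, SE, adjusted p = 0.826). Secreted modulators on the fixed list of named genes were not called either: Sfrp4, a Wnt antagonist, at -0.42 (adjusted p = 0.108) and Grem1, a BMP antagonist, at 0.32 (adjusted p = 0.336). Of 21 interferon and antigen presentation genes, 1 was higher, the interferon-induced GTPase Gbp2 (1.33), and 1 was lower. Smad7 lost its call without library 1.1 (0.93), 2.1 (1.21) or 2.3 (1.19) and Gbp2 without library 1.1 (0.81) or 2.3 (1.40). Sfrp4 was called without library 1.1 (-0.66, adjusted p = 0.0294). Over all lists, 98 of 426 tested genes were higher and 12 lower, with a median of 0.16. Among all genes tested, 5.77% were higher and 0.828% lower, with a median of -0.02. The lists were chosen with earlier results of these data known, so this gap is no independent support.

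Among the 15 highest ratios of called genes with at least 10 counts in each Pre-adipocyte sum were several outside these lists. Tnfrsf12a, the receptor of the cytokine TWEAK, had 225 and 204 CPM in Pre-adipocyte cells, against 25 and 27.3 CPM in Adipocyte progenitor cells (3.11 ± 0.38, SE, 8.66-fold, adjusted p = 1.34e-05). Every Pre-adipocyte value was above every Adipocyte progenitor value. Arrdc3, an arrestin-domain protein that takes part in receptor trafficking, had 128 and 79.0 CPM in Pre-adipocyte cells and 12.5 and 12.6 CPM in Adipocyte progenitor cells (3.05 ± 0.60, SE, adjusted p = 0.00242). Kcne4, a subunit of potassium channels, differed by 2.32 ± 0.31 (SE), with 41.5% of its Pre-adipocyte counts of Stroma1 in 1 barcode. Tubb6, a beta-tubulin, differed by 2.35 ± 0.45 (SE).

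Respiratory chain, mitochondrial and ribosomal genes had medians below that of all genes tested (-0.02). Of 39 tested nuclear genes of the respiratory chain, 2 were lower (Cox6b1 at -1.02 and Ndufa2 at -1.16) and the median was -0.31, with no call left without library 1.2, 2.1 or 2.3. Cox6b1 lost its call without any one of the 5 libraries (-1.25 to -0.89), and Ndufa2 without library 1.2 (-1.17), 2.1 (-1.05) or 2.3 (-1.26). Of 12 tested genes of the mitochondrial genome, 5 were lower (mt-Atp6, mt-Co2, mt-Cytb, mt-Nd1 and mt-Nd4), at a median of -0.35, and the share of counts on these genes is given above. Of 80 ribosomal protein genes, 1 was lower (Rpl39), near the 0.828% of all genes tested that were lower, and the median was -0.16.

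Some of the highest ratios were carried by single barcodes. Over 30% of a gene's Pre-adipocyte counts in a sample lay in 1 barcode for 31 of the 258 higher genes. S100a9 and S100a8, calcium-binding proteins of neutrophils, had the highest ratios of all named genes, 5.04 and 4.90 on the log2 scale, or 6.08 and 6.0 without library 2.1. S100a9 had 167 and 48 counts in Pre-adipocyte cells, and 166 of the Stroma1 counts lay in 1 barcode of library 1.2. In Stroma2, 2 barcodes held 32 and 16 of the 48. Adipocyte progenitor cells had 6 and 10 counts. Neutrophil markers as a whole reached 2311 and 381 CPM in Pre-adipocyte cells, with 5 and 4 of the 9 markers seen, against 40.7 and 42.1 CPM in Adipocyte progenitor cells, with 4 and 5 seen. Elane and Mpo, markers of immature neutrophils, were at 0 in Pre-adipocyte cells of both samples, as were Ngp and Camp. Ltf had 1 and 0 counts there. The other markers seen beside S100a8 and S100a9 were Retnlg (36 and 8 counts) and Lcn2 (7 and 2 counts). Without the cells in which another type's markers exceeded 2%, S100a9 had 1 and 0 counts in Pre-adipocyte cells and 6 and 10 in Adipocyte progenitor cells. S100a8 had 0 and 0 counts in Pre-adipocyte cells and 1 and 7 in Adipocyte progenitor cells, and neither gene had enough counts to test. Srgn, a proteoglycan of blood cell granules, had 2 and 7 counts in Pre-adipocyte cells and 3 and 14 in Adipocyte progenitor cells after this step.

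A few other barcodes, in Stroma2, held much of Ptgs2, Fn1, Bmp2 and Sox9. In Stroma2, 1 barcode of library 2.3 with 8001 counts held 105 of the 168 Pre-adipocyte counts of Fn1 (fibronectin), and the next barcode held 60. The barcode with 8001 counts also held 119 of 215 counts of Ptgs2 (cyclooxygenase 2), 98 of 182 of Bmp2 and 59 of 155 of Sox9. Of the cartilage proteoglycan Acan it held 46 of 61. In the same order, the next barcode of each gene held 73, 56, 43 and 15 counts. Chondrocyte markers summed to 56.2 and 432 CPM in Pre-adipocyte cells, with 4 and 7 of 9 seen. In Adipocyte progenitor cells they summed to 43.8 and 73.6 CPM, with 5 and 6 seen. No Pre-adipocyte cell exceeded 2% on the chondrocyte list, so the cells left out below passed on another list. Fn1 differed by 3.40 with all cells, by -0.58 (adjusted p = 0.811) without the cells over 2% and by -0.42 (adjusted p = 0.901) without cells whose barcode recurs in their sample. Its levels overlapped even with all cells, 40.1 and 781 CPM in Pre-adipocyte cells and 31.3 and 48.4 CPM in Adipocyte progenitor cells. Ptgs2 was called with all cells (3.48) and not called after either step (1.15, adjusted p = 0.116, and 1.32, adjusted p = 0.0733). Bmp2, a bone morphogenetic protein, kept its call with smaller values, 3.28 with all cells, then 1.61 (adjusted p = 0.00111) and 1.80 (adjusted p = 0.000704). After the first step Bmp2 had 20 and 28 counts in Pre-adipocyte cells, against 18 and 23 in Adipocyte progenitor cells. Sox9, the cartilage transcription factor, differed by 2.12 with all cells, 1.05 (adjusted p = 0.0208) and 0.91 (adjusted p = 0.104). Without library 2.3 the values were 2.40 for Fn1, 2.61 for Ptgs2, 2.52 for Bmp2 and 1.86 for Sox9, the last no longer called (adjusted p = 0.0795), and without library 2.2 Ptgs2 was at 4.20.

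Counts of Ifrd1, Nr4a1 and Ccl2 were spread over more barcodes. The highest barcode held 6.04% and 3.69% of the Pre-adipocyte counts of Ifrd1, 5.65% and 5.63% of Nr4a1 and 10.5% and 6.67% of Ccl2. Shares were larger for some other genes of these lists, such as 31.8% for Egr2 in Stroma2, and 21.8% for Klf2 and 15.7% for Ccl7 in Stroma1. Without the cells over 2%, the differences were 2.68 for Ifrd1, 1.73 for Nr4a1, 2.70 for Ccl2 and 2.13 for Cebpb, all still called.

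**Figure D4:**
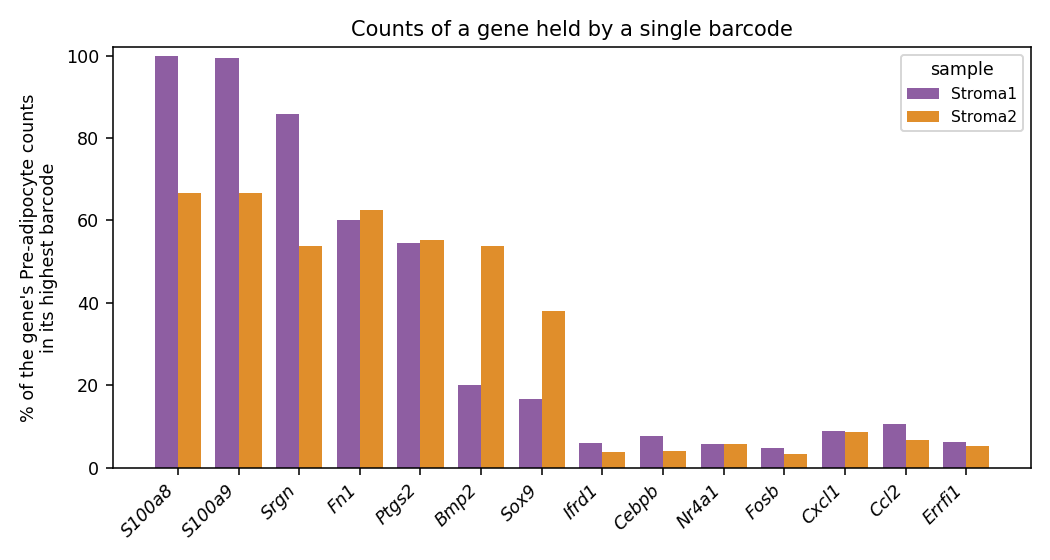
Percent of a gene's Pre-adipocyte counts that lie in its highest barcode, in Stroma1 (purple) and Stroma2 (orange), for 14 genes. S100a8, S100a9 and Srgn reach over 50% in both samples, Fn1 and Ptgs2 likewise, Bmp2 and Sox9 in Stroma2 reach 53.9% and 38.1%, and the 7 genes from Ifrd1 to Errfi1 stay near or under 10%.

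Levels of many called genes also differed within each class along the authors' adipocyte path. Each class was cut by rank of pseudotime into 3 groups of like size, early, middle and late, and counts were summed per group and sample. Pseudotime comes from the same counts, so these values are a description with no test. In Stroma1, Ifrd1 had 473, 612 and 1583 CPM in the Adipocyte progenitor groups and 3113, 5746 and 7258 CPM in the Pre-adipocyte groups. In Stroma2 it had 291, 559 and 1756 CPM in the Adipocyte progenitor groups and 3788, 3924 and 6788 CPM in the Pre-adipocyte groups, so each step along the path was upward in both samples. For Cebpb the groups held 339, 843 and 1790.4 CPM in the Adipocyte progenitor groups and 3088, 3437 and 4414 CPM in the Pre-adipocyte groups in Stroma1. The corresponding Stroma2 values were 476, 788 and 1290.5 CPM in the Adipocyte progenitor groups and 2586, 3625 and 4093 CPM in the Pre-adipocyte groups, again higher at each step. Ccl7 had 26.8, 60.2 and 198 CPM in the Adipocyte progenitor groups and 462, 825 and 1252 CPM in the Pre-adipocyte groups in Stroma1, and every step was upward. In Stroma2 it had 33.0, 37.2 and 101 CPM in the Adipocyte progenitor groups and 238, 407 and 706 CPM in the Pre-adipocyte groups, likewise upward throughout. The late Adipocyte progenitor group thus lay between the earlier groups and the Pre-adipocyte groups for all 3 genes. Fosb was higher at each step in Stroma2 and at each step but 1 in Stroma1. Fos ran between 11215 and 17995 CPM with no single direction. In Stroma1, Cxcl12 had 61047, 60307 and 55126 CPM in the Adipocyte progenitor groups and 51409, 52650.0 and 41169 CPM in the Pre-adipocyte groups. In Stroma2 it had 62429, 59219 and 57933 CPM in the Adipocyte progenitor groups and 48664, 48142 and 34286 CPM in the Pre-adipocyte groups, lowest in the late Pre-adipocyte group of both samples. Mmp13 was highest in the middle Adipocyte progenitor group, at 1565 CPM in Stroma1 and 1527 CPM in Stroma2, and lower on both sides of it. Adipoq had 2135, 1976 and 1866 CPM in the Adipocyte progenitor groups and 2821, 2172 and 1825 CPM in the Pre-adipocyte groups in Stroma1. In Stroma2 it had 2378, 1825 and 1712 CPM in the Adipocyte progenitor groups and 1579.7, 1588 and 1023 CPM in the Pre-adipocyte groups, and the late Pre-adipocyte group was the lowest in each sample. Cebpa was lowest in the late Pre-adipocyte group, at 255 CPM in Stroma1 and 360.3 CPM in Stroma2.

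**Figure D5:**
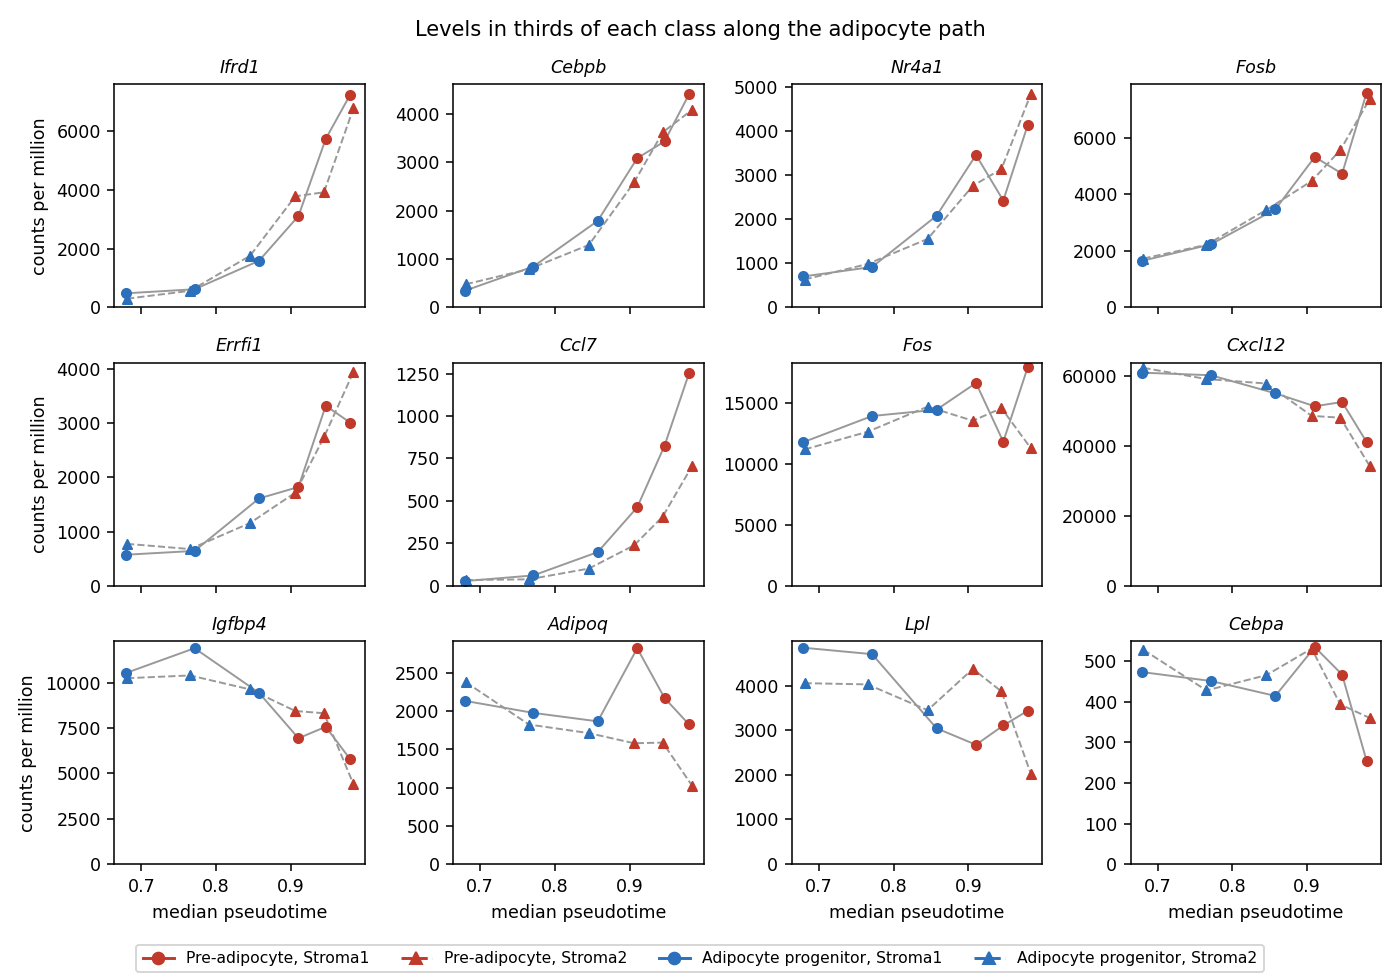
CPM of 12 genes (panels, linear axes from 0) in the early, middle and late group of each class against the group's median adipocyte-path pseudotime, with blue for Adipocyte progenitor, red for Pre-adipocyte, circles and solid lines for Stroma1 and triangles and dashed lines for Stroma2. Ifrd1, Cebpb and Ccl7 climb through both classes, Cxcl12 and Igfbp4 decline toward the end of the path, and Fos and Lpl show no common direction.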

How the data were processed

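The authors deposited 1 table of counts per gene and barcode, with no normalization. Per the submitters' processing notes, Bowtie 1.1.1 and genome build GRCm38 were used; how reads were counted into molecules and with which annotation is not given in the sources used here. Per the file headers, the authors also gave each barcode a sample, a library, a class, a filter flag, the fraction of its counts on mitochondrial genes, a fate probability and a pseudotime (both fractions from 0 to 1), and a potential score. The score was tabulated but no result rests on it.

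Cells that passed the authors' filter were summed per class and sample, giving 4 sums of 124616 to 475368 counts, since cells are not replicates. No doublet caller was run; cells with over 2% of counts on markers of another type were left out as an alternative. The sums were compared with the edgeR 4.0.16 quasi-likelihood test in R 4.3.3, with TMM scaling, sample as a block, filterByExpr at a minimum count of 10 (4470 of 25289 genes) and Benjamini-Hochberg adjustment over all genes tested. A call is an adjusted p under 0.05. The fit has 1 residual degree of freedom and borrows its spread from all genes. Both classes were taken from each sample, which is what pairs the sums. The contrast between samples used sums per library, and libraries of a sample are not shown to be separate animals. DESeq2 1.42.0 was an alternative. Intervals of ratios are exact and cover counting error only.

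Named genes are, first, the 15 highest and 15 lowest called differences with at least 10 counts in each sum of the higher class. To these were added the 3 highest and 2 lowest called members of each list, and a fixed list. Outside the fixed list, a gene had to have the same direction in both samples. Other genes in the text are members of small groups or were chosen after their values were seen. The comparison, the members and the lists were chosen with earlier results of these data known. Some genes the rule names are not reported here.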

Additional observations from a re-analysis of the deposited data

How the results depend on the processing

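The count of higher genes, 258 in the reported fit, moved by over 1.5 times in 3 settings: 157 without library 2.3, 131 with each cell thinned to 500 counts (1292 genes tested) and 107 with DESeq2. The count of lower genes, 37, moved more often. It was 59 with DESeq2's size factors in edgeR, 100 with raw totals, 63 with no filter on low counts (14867 genes tested), 75 with sums per library, 23 without library 1.1, 8 without library 2.3, 63 with each barcode used once per sample and 8 with DESeq2. All 107 higher and 8 lower DESeq2 calls were among the reported calls. DESeq2 called higher 8 other early transcription factors (11 in the reported fit) and 13 early-response feedback regulators (16). For heat shock chaperones it called 5 (7), and for inflammatory chemokines 4 (4). The cause of these moves was not tested. Thinning and leaving out a library also leave fewer counts and fewer genes to test. Without the replicate block that pairs both classes of a sample, 267 genes were higher and 43 lower, of which 248 and 37 were among the reported calls. Of 87 called genes named by the rule, 42 kept their call under every alternative with a test that could test them. With the sign kept, 9 lost their call without shared barcodes, 3 without cells over 2% and 24 with DESeq2. Signs turned for Fn1, to -0.58 without cells over 2% and -0.42 without shared barcodes, and for Fos, to -0.015 without library 1.2. Leaving out a whole sample gives values with no test. No called gene named by the rule turned its sign, but outside the fixed list the rule itself required the same direction in both samples. Of the named genes not called, the sign turned for Adipoq (0.30) and Fabp4 (0.42) in Stroma1 alone. It also turned for Lepr (0.03) and Runx2 (0.07) in Stroma2 alone. Leaving out cells with shared barcodes (260 higher, 50 lower) or the highest barcode of each gene (294 and 44) was added after seeing the data. Depth limits what can be seen of low genes such as Pparg.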
